A study of Mus musculus with 6 samples.

Results

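The transcripts described here belong to the transforming growth factor beta (TGF-beta) pathway in mouse lung cultures labelled as microvascular endothelial cells (LMVEC). The 9 genes were selected by name from the 21999 genes of the deposited table, and each had a row. They are the ligand genes Tgfb1, Tgfb2 and Tgfb3, the activin subunit gene Inhba, the receptor genes Tgfbr1, Tgfbr2 and Tgfbr3, the signal transducer Smad3, and Smad7, which is both a target and an inhibitor of the pathway. RNA had been sequenced from cells of mice with both copies of Ptprz1, the gene of a receptor protein tyrosine phosphatase (Ptprz1+/+), and of mice labelled as knockouts (Ptprz1-/-), with 3 isolations each. All mice were of the SV129/B6 strain and 3 to 8 weeks old. Every isolation pooled the lungs of 2 to 5 mice, so a library is a pool and not an animal. The cells were grown in culture with endothelial growth supplement, selected on magnetic beads carrying an antibody to CD31, and left untreated.

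TGF-beta ligands are secreted in a latent form, held by latency proteins in the matrix or at the cell surface, and have to be released before they can bind. Active ligand is bound by the type II receptor encoded by Tgfbr2, which recruits and phosphorylates the type I receptor encoded by Tgfbr1. The type I receptor then phosphorylates SMAD2 and SMAD3, which enter the nucleus with SMAD4 and act on transcription. Betaglycan, the product of Tgfbr3, presents ligand to the signalling receptors, and TGFB2 in particular depends on it. In vessels the pathway acts on endothelial growth, on the matrix and on mural cells, and endothelial cells also use the type I receptor ALK1 (Acvrl1) and the co-receptor endoglin (Eng).

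Before the values of the pathway are given, some features of the libraries need to be stated. Between 14496881 and 17709663 reads were counted on genes per library, and 13609 genes passed the filter on low counts of edgeR. Ptprz1 itself was counted in every library, with 197, 1837 and 508 reads in Ptprz1+/+ replicates 1, 2 and 3, and 1138, 1320 and 895 reads in the libraries labelled Ptprz1-/-. The targeted gene therefore did not separate the genotypes, so all directions below depend on how the libraries were labelled. Summed over 12 of 12 endothelial markers, the level in Ptprz1+/+ replicates 1, 2 and 3 was 30.1, 37.9 and 559 CPM (counts scaled to a common library size). In the libraries labelled Ptprz1-/- it was 27.8, 17.4 and 183 CPM, lower for each replicate number. Summed over 9 of 9 fibroblast markers, it was between 12431 and 19893 CPM in the Ptprz1+/+ libraries and between 8404 and 22072 CPM in those labelled Ptprz1-/-, above the endothelial sum in every library. These markers go against the endothelial label of the cultures, most of all in replicates 1 and 2. The other lists lay below the fibroblast sum, with 7 smooth muscle and pericyte markers at 557 to 859 CPM in Ptprz1+/+ and 846 to 1018 CPM in Ptprz1-/-, 5 leukocyte markers at 10.4 to 50.3 CPM and 7 epithelial markers at 0.961 to 3.78 CPM in sum over all libraries. The sum of 6 mesothelial markers was 217, 55.8 and 90.7 CPM in Ptprz1+/+ replicates 1, 2 and 3 and 1380, 115 and 279 CPM in Ptprz1-/-, higher in Ptprz1-/- for each replicate number and highest in replicate 1. The part of the endothelial and mesothelial sums in the results was not tested. In bulk RNA, fewer cells of a type and less RNA per cell cannot be told apart.

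All 9 genes passed the filter on low counts, and none was called different between the genotypes. After Benjamini-Hochberg adjustment over all genes tested, edgeR's quasi-likelihood test called 0 of the 9, beside 0 of the 13609 genes tested (0%). At an unadjusted p under 0.05 the numbers were 0 of 9 and 366 of 13609 (2.69%). DESeq2, tried as an alternative, called 0 of the 9 and 31 of the 16398 genes it gave an adjusted p (0.189%), and 0 of the 9 and 565 of 21943 genes (2.57%) had an unadjusted DESeq2 p under 0.05. In no member did the 3 libraries of one genotype all lie beyond those of the other, a pattern found in 991 genes (7.28%). By sign alone, 3 of the 9 lay higher and 6 lower in Ptprz1-/- than in Ptprz1+/+, with a median log2 fold change of -0.12 against -0.0047 over all genes tested. For the median member the highest library was 2.05 times the lowest, compared with 1.72 for the median gene tested.

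**Figure D1:**
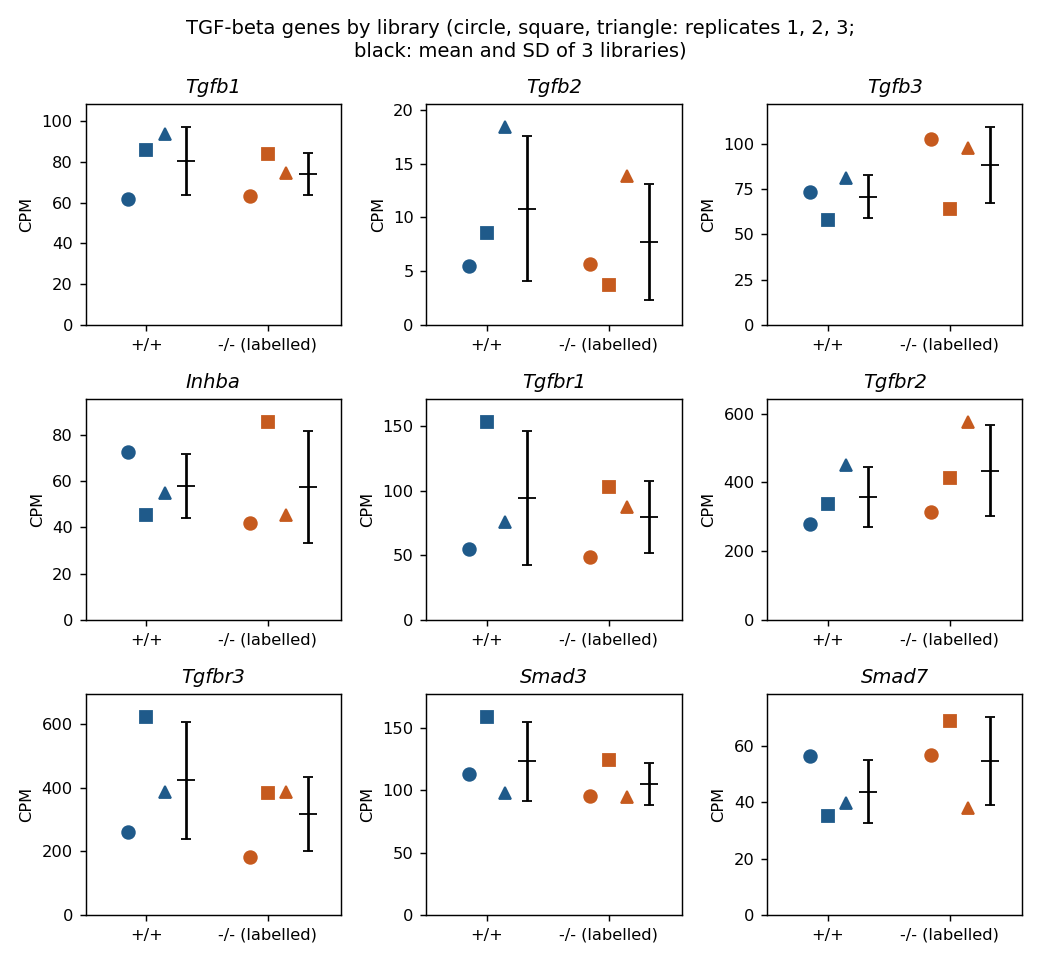
Level of each of the 9 genes in CPM on linear axes starting at 0, with 1 panel per gene; blue and orange symbols are the Ptprz1+/+ libraries and those labelled Ptprz1-/-, the shape gives the replicate, and black marks are the mean and SD of 3 libraries. The libraries of both genotypes overlapped for every gene, and Tgfb2 spread most, from 3.71 to 18.4 CPM.

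Levels of different genes were compared per length, as the deposited FPKM (fragments scaled to gene length and library size) averaged over the 6 libraries. Tgfbr2 was highest at 82.7 ± 24.0 FPKM (SD, n = 6), followed by Tgfbr3 at 60.8 ± 25.3 and Tgfb1 at 35.4 ± 5.48. Then came Inhba at 29.1 ± 7.79, Tgfb3 at 23.6 ± 5.93, Smad3 at 22.4 ± 5.01, Tgfbr1 at 15.1 ± 6.80 and Smad7 at 11.4 ± 2.89 FPKM. Tgfb2 was lowest, at 1.96 ± 1.19 FPKM. Neighbours in this order had overlapping ranges, except that Tgfb2, between 0.741 and 3.76 FPKM, lay below Smad7, between 8.43 and 15.2 FPKM, in every library. Even so Tgfbr3 was above Tgfb1 in 6 of 6 libraries and Smad3 above Tgfbr1 in 6 of 6, while Tgfb3 was above Smad3 in 3 of 6. Among detected genes, 96.3% had a lower mean FPKM than Tgfbr2 and 51.9% a lower one than Tgfb2.

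The 3 TGF-beta ligand genes are described first. Tgfb1 (ENSMUSG00000002603, chromosome 7 of GRCm38 from 25687002 to 25705077, plus strand) encodes the most widely expressed isoform, and Tgfb2 (ENSMUSG00000039239, chromosome 1 from 186623186 to 186705992, minus strand) an isoform known from heart and vessel development. Because they were the most and the least abundant ligand per length, the RefSeq promoter windows of these 2 genes (GRCm38.p6, 300 bases, from 250 before to 50 after the annotated start) are shown. They are printed on the strand of the gene, from chr7:25686752-25687051 (plus) and chr1:186705940-186706239 (minus), with capitals for a GC box (CCCGCCC) or a TATA box (TATAAA), both searched on either strand.
Tgfb1: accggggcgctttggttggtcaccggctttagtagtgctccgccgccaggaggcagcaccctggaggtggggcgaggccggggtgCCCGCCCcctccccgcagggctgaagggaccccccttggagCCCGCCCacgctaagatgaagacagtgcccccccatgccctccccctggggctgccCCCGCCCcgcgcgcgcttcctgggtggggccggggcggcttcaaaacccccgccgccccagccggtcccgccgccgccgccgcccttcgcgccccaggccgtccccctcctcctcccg
Tgfb2: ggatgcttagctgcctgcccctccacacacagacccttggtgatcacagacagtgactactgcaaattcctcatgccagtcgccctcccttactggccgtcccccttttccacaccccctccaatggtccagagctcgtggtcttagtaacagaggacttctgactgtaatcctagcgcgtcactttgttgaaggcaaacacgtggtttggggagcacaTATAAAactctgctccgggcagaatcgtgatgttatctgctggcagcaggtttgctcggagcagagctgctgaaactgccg
The Tgfb1 window has 77.0% G and C and 3 GC boxes, with no TATA box. The Tgfb2 window has 54.3% G and C, no GC box, and 1 TATA box that begins 31 bases before the start. Over 32851 promoter windows of the same length in RefSeq, 25.6% held the GC box letters and 13.6% the TATA box letters. These matches describe letters in a window, and no measurement of factor binding or of transcription starts was made in these cells.

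Tgfb1 was counted with 1024, 1559 and 1484 reads in the Ptprz1+/+ libraries and 1022, 1224 and 1126 in those labelled Ptprz1-/-. Scaled, this was 61.9, 85.7 and 93.6 CPM against 63.4, 84.0 and 74.4 CPM. The lowest value of both genotypes was in replicate 1, and Tgfb1 spread least of the 9 genes, with the highest library 1.51 times the lowest. Its mean was 80.4 ± 16.5 CPM in Ptprz1+/+ and 73.9 ± 10.3 CPM in the libraries labelled Ptprz1-/- (SD, n = 3 each), a log2 fold change of -0.12 (standard error 0.19, 95% interval -0.59 to 0.35). Neither edgeR (adjusted p = 1.00) nor an exact two-sided permutation test of log2 CPM over the 6 libraries (p = 0.70) separated the genotypes. With 3 libraries against 3, the permutation test cannot go below p = 0.10.

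Tgfb2 was the most variable member. It had 91, 156 and 291 reads in the Ptprz1+/+ libraries and 91, 54 and 209 in those labelled Ptprz1-/-, or 5.50, 8.58 and 18.4 CPM against 5.65, 3.71 and 13.8 CPM. In both genotypes replicate 3 was highest, and over all 6 libraries the highest was 4.95 times the lowest. Replicate 3 was also where the summed endothelial and fibroblast markers were highest in each genotype. The fibroblast sum was mostly Col3a1 and Col1a2. In Ptprz1+/+, Pdgfra, Dcn, Lum and Col6a3 were instead highest in replicate 2, and Thy1 in replicate 1. In Ptprz1-/- every fibroblast marker but Thy1 was highest in replicate 3. The part of these markers in the Tgfb2 level was not tested. Between genotypes the means were 10.8 ± 6.72 and 7.72 ± 5.36 CPM (SD, n = 3 each), with a log2 fold change of -0.48 (standard error 0.62, 95% interval -1.99 to 1.02). This was within the spread between isolations (edgeR adjusted p = 1.00; exact permutation p = 0.60), and the sign turned to 0.13 when Ptprz1+/+ replicate 3 was left out. Exons of Tgfb2 overlap 124 bases of the antisense gene Gm29491, which had 0 to 3 reads per library.

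Tgfb3 (ENSMUSG00000021253, chromosome 12 from 86056744 to 86079041, minus strand), the third isoform, had 73.5, 58.3 and 81.1 CPM in the Ptprz1+/+ libraries and 102.5, 64.3 and 98.0 CPM in those labelled Ptprz1-/-. Replicate 2 was the lowest of each genotype. The means were 71.0 ± 11.6 and 88.3 ± 20.9 CPM (SD, n = 3 each), a log2 fold change of 0.32 (standard error 0.22, 95% interval -0.22 to 0.85; edgeR adjusted p = 1.00; exact permutation p = 0.30). Without Ptprz1-/- replicate 2 it was 0.50, and the unadjusted p was 0.0378 with an adjusted p of 1.00. Exons of Tgfb3 overlap those of Gm37804 and Gm48008 on the opposite strand by 163 and 257 bases, and whether counting used strand is not given in the sources used here.

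As shares of the summed FPKM of the 3 TGF-beta ligands, Tgfb1 made up 55.4%, 67.4% and 60.7% in the Ptprz1+/+ libraries and 48.1%, 66.1% and 51.8% in those labelled Ptprz1-/-. The share of Tgfb3 was 42.3%, 29.5% and 33.8% against 49.97%, 32.5% and 43.8%. Tgfb1 was the larger of these 2 in every library except Ptprz1-/- replicate 1, where the ratio of Tgfb1 to Tgfb3 was 0.962. Tgfb2 never exceeded 5.48%, and the ratio of Tgfb1 to Tgfb2 ran from 11.1 to 49.2. No difference between genotypes in these shares exceeded the spread, with exact two-sided permutation p = 0.40 for Tgfb1, 0.50 for Tgfb2 and 0.30 for Tgfb3.

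Inhba (ENSMUSG00000041324, chromosome 13 from 16011851 to 16027211, plus strand) encodes the subunit of activin A, a related ligand that acts through its own receptors and the same SMAD2 and SMAD3. It had 72.6, 45.4 and 55.0 CPM in the Ptprz1+/+ libraries and 41.7, 85.3 and 45.5 CPM in those labelled Ptprz1-/-. The highest and the lowest value of the 6 were both in libraries labelled Ptprz1-/-, so one genotype enclosed the other. The means were 57.7 ± 13.8 and 57.5 ± 24.2 CPM (SD, n = 3 each). The 95% interval of the log2 fold change (-0.0040, standard error 0.32) ran from -0.78 to 0.77 (edgeR adjusted p = 1.00; exact permutation p = 0.90).

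Of the receptor genes, Tgfbr1 and Tgfbr3 spread most between isolations, with the highest library 3.13 and 3.39 times the lowest. Tgfbr1 (ENSMUSG00000007613, chromosome 4 from 47353222 to 47414931, plus strand), the type I receptor ALK5, had 54.8, 152.9 and 75.4 CPM in the Ptprz1+/+ libraries and 48.9, 103.1 and 87.0 CPM in those labelled Ptprz1-/-. It was lowest in replicate 1 and highest in replicate 2 of both genotypes. With means of 94.4 ± 51.7 and 79.7 ± 27.8 CPM (SD, n = 3 each), the log2 fold change was -0.24 (standard error 0.44, 95% interval -1.31 to 0.82; edgeR adjusted p = 1.00; exact permutation p = 0.90). Leaving out Ptprz1+/+ replicate 2 turned it to 0.29.

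Tgfbr2 (ENSMUSG00000032440, chromosome 9 from 116087698 to 116175363, minus strand) encodes the ligand-binding type II receptor. It had 280.0, 338 and 452 CPM in the Ptprz1+/+ libraries and 314, 414 and 575 CPM in those labelled Ptprz1-/-. Replicate 1 was lowest and replicate 3 highest in both genotypes, and the ranges overlapped. Mean levels of 357 ± 87.3 and 434.5 ± 132 CPM (SD, n = 3 each) gave a log2 fold change of 0.29 (standard error 0.28, 95% interval -0.40 to 0.97; edgeR adjusted p = 1.00; exact permutation p = 0.50). The endothelial and fibroblast sums also peaked in replicate 3, although in Ptprz1+/+ the fibroblast markers Pdgfra, Dcn, Lum, Col6a3 and Thy1 did not. The part of these sums in the Tgfbr2 level was not tested. Without Ptprz1-/- replicate 3 the log2 fold change was 0.028, and without Ptprz1+/+ replicate 3 it was 0.49.

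Tgfbr3 (ENSMUSG00000029287, chromosome 5 from 107106570 to 107289629, minus strand), encoding betaglycan, had 259.9, 622 and 387 CPM in the Ptprz1+/+ libraries and 183, 384 and 385 CPM in those labelled Ptprz1-/-. Replicate 1 was again the lowest of each genotype, and Ptprz1+/+ replicate 2 stood above the other 5 libraries. The means of 423 ± 183 and 318 ± 116 CPM (SD, n = 3 each) corresponded to a log2 fold change of -0.41 (standard error 0.41, 95% interval -1.40 to 0.58; edgeR adjusted p = 1.00; exact permutation p = 0.40). Without Ptprz1+/+ replicate 2 it was -0.029. Exons of Tgfbr3 overlap 297 bases of Gm43422 on the same strand.

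Of the summed FPKM of the 3 receptors, Tgfbr2 held 52.8%, 35.5% and 55.2% in the Ptprz1+/+ libraries and 63.0%, 51.7% and 60.5% in those labelled Ptprz1-/-. Tgfbr3 held 38.6%, 51.2% and 37.2% against 28.9%, 37.6% and 31.9%. Ptprz1+/+ replicate 2 was the only library in which Tgfbr3 exceeded Tgfbr2. Tgfbr1 was the smallest part in every library, between 7.61% and 13.3%, and Tgfbr2 was 2.66 to 7.95 times Tgfbr1 per length. By the exact two-sided permutation test, p was 0.60 for the share of Tgfbr1, 0.30 for Tgfbr2 and 0.20 for Tgfbr3.

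**Figure D2:**
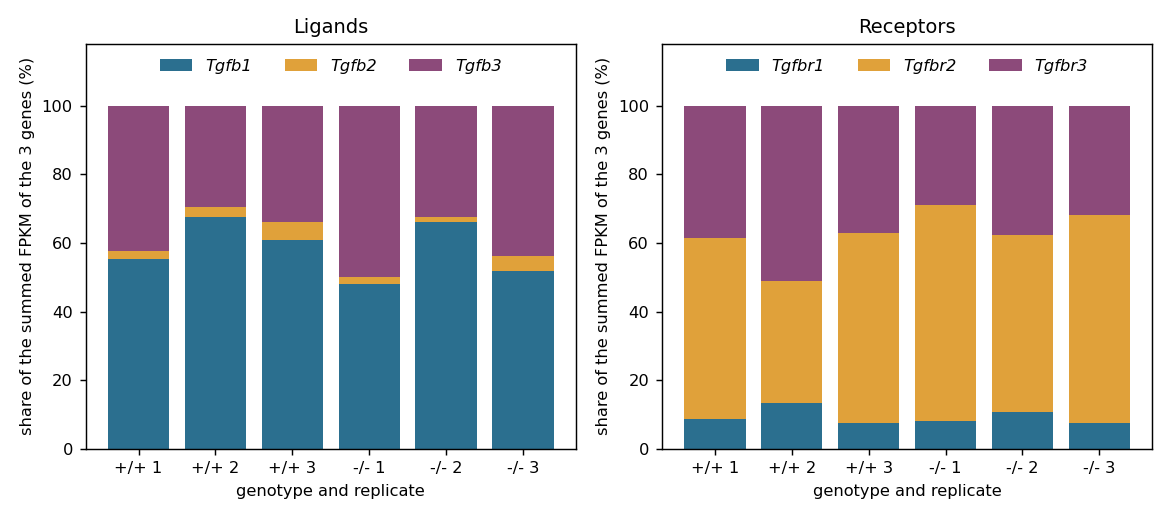
Share of each TGF-beta ligand in the summed FPKM of Tgfb1, Tgfb2 and Tgfb3, and of each receptor in that of Tgfbr1, Tgfbr2 and Tgfbr3, in percent, with 1 stacked bar per library. Tgfb2 stayed at or below 5.48% in all 6 libraries, and Tgfbr3 exceeded Tgfbr2 in Ptprz1+/+ replicate 2 alone.

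The intracellular members were Smad3, which carries the signal to the nucleus, and Smad7, which is induced by the pathway and blocks the type I receptor. Smad3 (ENSMUSG00000032402, chromosome 9 from 63646767 to 63757994, minus strand) had 113, 159 and 97.9 CPM in the Ptprz1+/+ libraries and 95.7, 124 and 94.5 CPM in those labelled Ptprz1-/-. As for Tgfbr1, replicate 2 was the highest of each genotype. Its means were 123.1 ± 31.6 and 105 ± 16.8 CPM (SD, n = 3 each), and the log2 fold change was -0.23 (standard error 0.22, 95% interval -0.76 to 0.29; edgeR adjusted p = 1.00; exact permutation p = 0.50). Without Ptprz1+/+ replicate 2 it was -0.011.

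Smad7 (ENSMUSG00000025880, chromosome 18 from 75367529 to 75395935, plus strand) had 938, 639 and 631 reads in the Ptprz1+/+ libraries and 918, 1005 and 574 in those labelled Ptprz1-/-, or 56.7, 35.1 and 39.8 CPM against 56.9, 69.0 and 37.9 CPM. The replicate 1 libraries of both genotypes were almost equal, and replicate 2 was the lowest of Ptprz1+/+ but the highest of Ptprz1-/-. At means of 43.9 ± 11.3 and 54.6 ± 15.7 CPM (SD, n = 3 each) the log2 fold change was 0.32 (standard error 0.27, 95% interval -0.35 to 0.98; edgeR adjusted p = 1.00; exact permutation p = 0.40). Leaving out Ptprz1-/- replicate 2 gave 0.11, and leaving out Ptprz1+/+ replicate 1 gave 0.55. Per length, Smad3 was 1.41 to 3.79 times Smad7, with the highest ratio in Ptprz1+/+ replicate 2 (exact permutation p = 0.30 between genotypes).

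Of 55 other genes of the pathway that had a row, 51 passed the filter. None of the 51 was called by edgeR, and 3 of them had an unadjusted edgeR p under 0.05 (366 of 13609, or 2.69%, over all genes). DESeq2, run without that filter on all 55, called none (against 0.189% of all genes). Of the 55, 7 had an unadjusted DESeq2 p under 0.05 (565 of 21943, or 2.57%, over all genes). In 4 of the 51 the genotypes did not overlap, namely Emilin1, Postn, Ctgf and Nox4, against 7.28% of all genes. By sign 27 lay higher and 24 lower in Ptprz1-/- than in Ptprz1+/+, with a median log2 fold change of 0.025. The number of these 51 genes whose highest value lay in a given library was 17 for Ptprz1-/- replicate 2 and 5 to 9 for each of the other 5 libraries, and the lowest value lay in Ptprz1+/+ replicate 2 for 17.

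In what follows the Ptprz1+/+ value stands first. Among 4 other ligand genes that passed, 1 was higher and 3 lower, and none was called. Inhbb, the other activin beta subunit, was at 55.9 ± 20.9 and 45.1 ± 10.4 CPM (SD, n = 3 each). Gdf11, a ligand of the activin group, was at 43.7 ± 10.6 and 38.0 ± 13.4 CPM.

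The latency and activation genes, which store and release TGF-beta, numbered 11, with 3 higher and 8 lower and none called. Emilin1, a matrix glycoprotein known to keep the TGF-beta precursor from being processed, had 221, 569 and 233 CPM in the Ptprz1+/+ libraries and 110, 137 and 200 CPM in those labelled Ptprz1-/-. All 3 libraries labelled Ptprz1-/- lay below all 3 Ptprz1+/+ libraries, with a log2 fold change of -1.19 (standard error 0.44, 95% interval -2.24 to -0.15). Its unadjusted edgeR p was 0.0313, which did not survive adjustment (adjusted p = 1.00), and the exact permutation p of 0.10 is the smallest possible. Without Ptprz1+/+ replicate 2 the log2 fold change was -0.61. Ltbp4, a latent TGF-beta binding protein, was at 63.2 ± 30.7 and 139 ± 79.3 CPM (SD, n = 3 each), a log2 fold change of 1.14 (standard error 0.51, 95% interval -0.075 to 2.36; edgeR adjusted p = 1.00). Without Ptprz1-/- replicate 3 it was 0.60.

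Of 5 other receptor genes that passed, 2 were higher and 3 lower, and none was called. The endothelial type I receptor gene Acvrl1 was at 26.5 ± 8.24 and 36.7 ± 16.1 CPM (SD, n = 3 each; log2 fold change 0.47, standard error 0.39). Eng, encoding endoglin, had 101.4, 59.4 and 142 CPM in the Ptprz1+/+ libraries and 59.6, 115 and 90.5 CPM in those labelled Ptprz1-/-. In Ptprz1+/+ both Eng and the endothelial marker sum were highest in replicate 3. In Ptprz1-/- the sum was highest in replicate 3 while Eng was highest in replicate 2. Acvrl1 was highest in replicate 3 of both genotypes, at 35.8 CPM in Ptprz1+/+ and 50.7 CPM in Ptprz1-/-. Acvr2b, a type II receptor of activins, was low, at mean levels of 1.80 and 1.58 CPM.

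The 5 signal transducers were all higher by sign, within a narrow range of log2 fold changes from 0.080 to 0.15, and none was called. All 5 were lowest in Ptprz1+/+ replicate 2 and highest in Ptprz1-/- replicate 2. By replicate number, Zfyve9 and Tgfbrap1 were higher in Ptprz1-/- for replicate 2 alone, and Smad2 was lower for replicate 3. Smad4, the common partner of the receptor-activated SMADs, was at 100.3 ± 9.27 and 111 ± 4.66 CPM (SD, n = 3 each; log2 fold change 0.15, standard error 0.12). Trim33, a ubiquitin ligase that acts on SMAD4, was at mean levels of 44.3 and 47.7 CPM. Without Ptprz1+/+ replicate 2 the log2 fold changes of Smad4 and Trim33 were 0.073 and 0.035. Without Ptprz1-/- replicate 2 they were 0.11 and 0.052, so the sign of both was kept. The 5 signal transducers were steadier than the 9 members, with the highest library 1.41 times the lowest for the median gene.

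Of 11 inhibitors, 9 were higher and 2 lower, with none called and a median log2 fold change of 0.18. Tgif1, a co-repressor of SMAD2 and SMAD3, was at 54.3 ± 12.6 and 67.3 ± 18.6 CPM (SD, n = 3 each; log2 fold change 0.31, standard error 0.26). Bambi, a decoy receptor, was at 6.65 ± 5.23 and 3.90 ± 0.129 CPM (log2 fold change -0.77, standard error 0.55).

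The 15 target genes divided into 7 higher and 8 lower, with none called, and log2 fold changes between -1.54 and 1.22. Postn, encoding the matrix protein periostin, had 20.2, 28.7 and 41.0 CPM in the Ptprz1+/+ libraries and 13.7, 14.3 and 18.6 CPM in those labelled Ptprz1-/-. Nox4, an NADPH oxidase, was at 17.8, 8.41 and 12.7 CPM against 23.5, 23.8 and 23.3 CPM. Postn lay lower and Nox4 higher in all 3 libraries labelled Ptprz1-/-. For Postn the log2 fold change was -0.95 (standard error 0.28, 95% interval -1.63 to -0.26, unadjusted edgeR p = 0.0141, exact permutation p = 0.10), and for Nox4 it was 0.86 (standard error 0.28, 95% interval 0.19 to 1.52, unadjusted edgeR p = 0.0190, exact permutation p = 0.10). Both had an adjusted p of 1.00. Thy1, a fibroblast marker and no gene of the pathway, also lay lower in all 3 libraries labelled Ptprz1-/-, at 313, 234 and 240.3 CPM against 112, 182 and 141 CPM. Of the 9 fibroblast markers it was the only 1 whose genotypes did not overlap, a pattern found in 7.28% of all genes. By sign all 9 lay lower, with log2 fold changes from -0.11 for Col1a2 to -0.91 for Col6a3, and none was called. Over all 13609 genes tested, 6924 lay lower. The part of Thy1 and the other fibroblast markers in the differences of Postn and Nox4 was not tested.

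Ctgf (Ccn2), a matricellular protein gene and a common readout of the pathway, had 194.5, 48.5 and 155 CPM in the Ptprz1+/+ libraries and 319, 412 and 198 CPM in those labelled Ptprz1-/-. The groups did not overlap, but the nearest libraries, at 194.5 and 198 CPM, were close, and the 95% interval of the log2 fold change (1.22, standard error 0.53) ran from -0.047 to 2.49 (edgeR adjusted p = 1.00; exact permutation p = 0.10). Ctgf and Smad7 were both lowest in Ptprz1+/+ replicate 2. Col1a1, which is also a fibroblast gene, was at 5502 ± 619 and 3888 ± 1444 CPM (SD, n = 3 each).

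**Figure D3:**
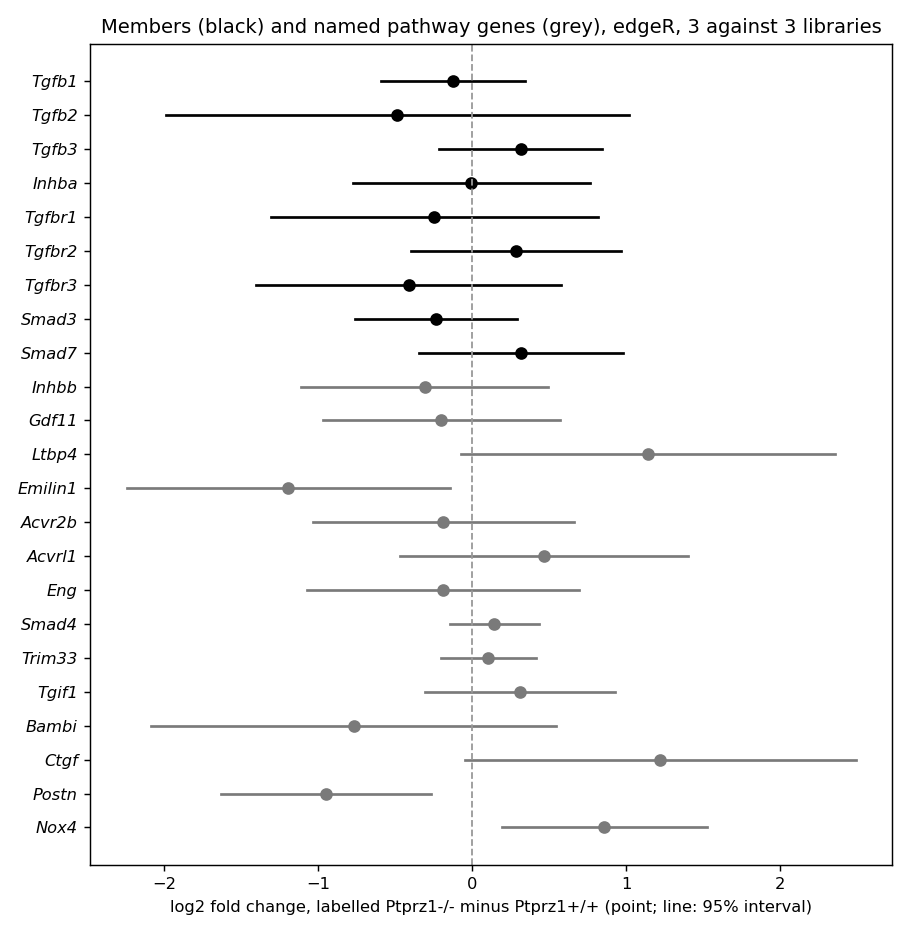
Log2 fold change, libraries labelled Ptprz1-/- minus Ptprz1+/+, with its 95% interval (line) from edgeR's quasi-likelihood fit, for the 9 members (black) and 14 named pathway genes (grey). The intervals of all 9 members cross 0, the widest of them that of Tgfb2 from -1.99 to 1.02, while those of Emilin1, Postn and Nox4 do not, although no gene passed the adjusted threshold.

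**Figure D4:**
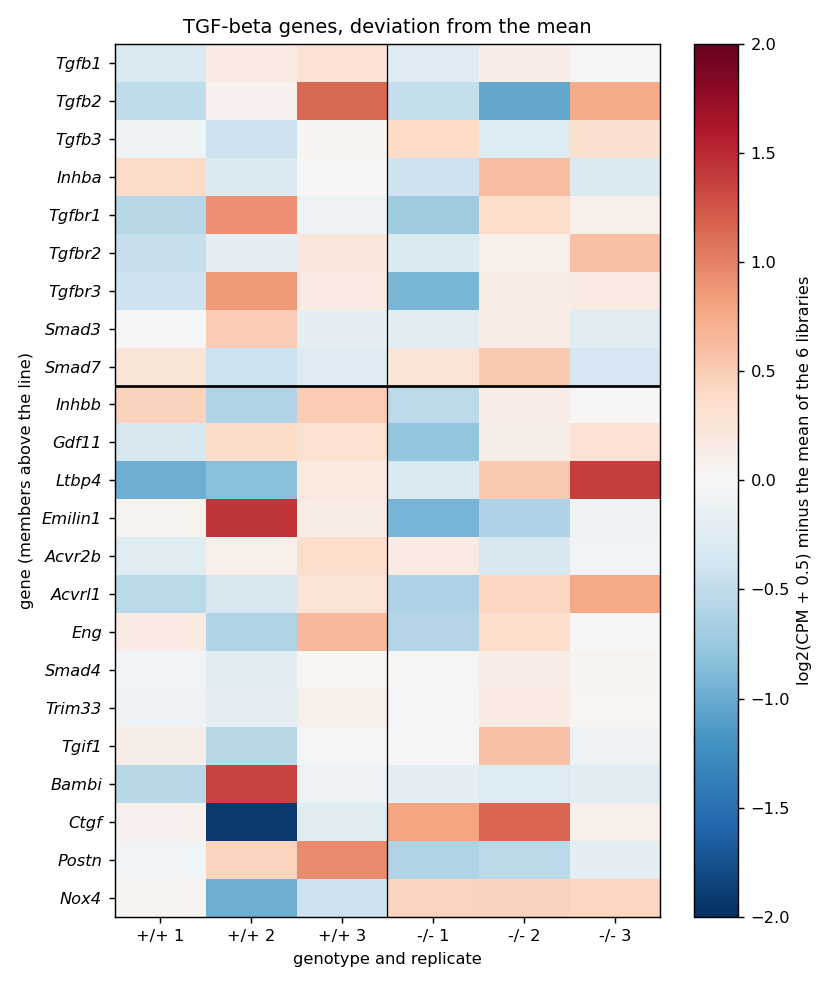
Deviation of log2(CPM + 0.5) from the mean of the 6 libraries (colour, red above and blue below) for the 9 members, above the black line, and 14 named pathway genes, with 1 column per library. Tgfb2 is high in both replicate 3 libraries, Tgfbr1 and Tgfbr3 are low in both replicate 1 libraries, and Ctgf is lowest in Ptprz1+/+ replicate 2, at 48.5 CPM.

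Tgfb2 was the only member whose highest library exceeded 4 times its lowest, and the genes with the most similar profile were sought. Likeness was the root mean square difference of centred log2(CPM + 0.5) over the 6 libraries, for which the deviation of Tgfb2 itself was 0.752. The nearest were Dpysl4 (0.132), Aatk (0.174) and Hcls1 (0.211), all highest in Ptprz1+/+ replicate 3. All of them were low, between 0.0686 and 3.79 CPM, so their profiles rest on few reads. The 0.5 CPM added before the logarithm narrows the spread of such low genes. By the ratio of highest to lowest CPM, all 3 spread more than Tgfb2, with Dpysl4 running from 0.0686 to 1.70 CPM.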

How the data were processed

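Total RNA of cultured cells from 3 isolations per genotype was sequenced. The authors deposited raw read counts per gene and library, and FPKM values computed from those counts with gene length. The table also holds the authors' own fold changes and p-values, which were not used. The submitters' processing notes name STAR, HTSeq, TopHat, DESeq2 and edgeR, with the builds GRCm38 and mm10; their roles and versions are not given in the sources used here. Groups and replicate numbers came from the labels.

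For the genotype comparison, the quasi-likelihood functions of edgeR 4.0.16 (R 4.3.3) were run on TMM-scaled counts of the 13609 genes kept by filterByExpr, without covariates. P-values were adjusted by the Benjamini-Hochberg method at a threshold of 0.05. The standard error is the absolute log2 fold change over the square root of F. An exact two-sided permutation test over the 6 libraries was used for each single value. The functions were tested on simulated data. The members and lists were chosen with earlier results of these data known. The text names all 9 members, the 2 pathway genes of each role with the smallest unadjusted p, and Eng, Acvrl1 and Ctgf; another gene under that rule is not reported here. Col1a1, Smad2, Zfyve9, Tgfbrap1, Thy1 and the other single cell type markers were named after their values were seen. Promoter windows and gene overlaps came from RefSeq (GRCm38.p6, 6 of the 9 members matched) and GENCODE M21. Alternatives were DESeq2 1.42.0, upper-quartile normalization, no filter, at least 10 counts in every library, the replicate number as a block, each library left out, and, chosen after seeing the data, both replicate 3 libraries left out.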

Additional observations from a re-analysis of the deposited data

How the results depend on the processing

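The number of called genes was 0 of the 9 members and 0 of the pathway genes under every alternative tried, the replicate block included. Of 108 log2 fold changes of members under the alternatives, 99 kept their sign, and of 168 of the named pathway genes 161 did. Without a filter on low counts, that of Inhba was 0.0033. With libraries left out, it ranged from -0.27 to 0.0032 for Tgfb1, from -1.21 to 0.13 for Tgfb2, from -0.40 to 0.20 for Inhba and from -0.52 to 0.29 for Tgfbr1. Tgfb1 and Tgfb2 turned without Ptprz1+/+ replicate 3, Tgfbr1 without Ptprz1+/+ replicate 2 or Ptprz1-/- replicate 1, and Inhba without Ptprz1+/+ replicate 1, Ptprz1-/- replicate 1 or 3, or both replicate 3 libraries. In the same fits Gdf11 ranged from -0.41 to 0.065, Acvr2b from -0.36 to 0.0088, Eng from -0.46 to 0.14 and Bambi from -1.11 to 0.091. The cause was not tested. With the replicate number as a block, 0 members and 0 pathway genes were called. The deviations of same-numbered libraries from their genotype means correlated at 0.456, -0.0598 and 0.527 (across genes, which are not independent replicates). Ptprz1+/+ replicate 1 with Ptprz1-/- replicate 3 gave -0.577, and Ptprz1+/+ replicate 3 with Ptprz1-/- replicate 1 gave -0.471. Replicates 1 and 3 thus resembled their namesakes across genotypes, and replicate 2 did not. Whether same-numbered isolations were handled together was not tested. With 3 libraries per genotype, differences inside the members' 95% intervals were not excluded.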

Other observations

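The contractile target genes Acta2, Tagln and Cnn1, which encode proteins of the smooth muscle cytoskeleton and were chosen after their values were seen, were highest in the replicate 1 library of each genotype. Acta2 had 2157, 145 and 703 CPM in the Ptprz1+/+ libraries and 1636, 332 and 367 CPM in those labelled Ptprz1-/-. Tagln was at 1349, 166 and 448 CPM against 1875, 396 and 379.5 CPM, and Cnn1 at 73.9, 10.1 and 3.79 CPM against 84.8, 15.9 and 6.21 CPM. In the same libraries Tgfb1, Tgfbr1, Tgfbr2 and Tgfbr3 were lowest within their genotype. The other members did not share this in both genotypes. Tgfb3 was highest in Ptprz1-/- replicate 1, and Inhba and Smad7 were highest of Ptprz1+/+ in replicate 1. Tgfb2 was lowest in Ptprz1+/+ replicate 1, and Inhba in Ptprz1-/- replicate 1. Within each genotype the summed mesothelial markers were also highest in replicate 1, at 217 and 1380 CPM against 55.8 to 279 CPM in the other libraries. So were the summed smooth muscle and pericyte markers, at 859 CPM against 557 and 806 CPM in Ptprz1+/+. In Ptprz1-/- they were at 1018 CPM against 931 and 846 CPM. The single markers of this list did not share the peak. In Ptprz1-/- only Des, at 410.5 CPM against 21.5 and 51.9 CPM, and Myh11 were highest in replicate 1. Pdgfrb, at 535 CPM against 838 and 693 CPM, Rgs5, Cspg4, Notch3 and Kcnj8 were lowest there. In Ptprz1+/+ replicate 1, Rgs5, Notch3 and Kcnj8 were lowest, and Pdgfrb, Des, Myh11 and Cspg4 highest. The part of either list in the pattern was not tested. Thrombospondin 1 (Thbs1), an activator of latent TGF-beta, also chosen after its values were seen, was at 2342, 2466 and 4822 CPM against 1118, 5294 and 2626 CPM, with the highest and the lowest value both in libraries labelled Ptprz1-/-. None of Acta2, Tagln, Cnn1 and Thbs1 was called (edgeR adjusted p = 1.00 each).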
